A study of Drosophila melanogaster with 5 samples.

Results

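Cytoplasmic ribosomal protein genes encode the protein components of the ribosomes that translate messages in the cytosol. The members described here are the protein-coding genes whose symbol in the 29 °C count table is RpL or RpS followed by a digit, or RpLP followed by a digit. The rule found 92 genes among 24034 features, of which 13968 were protein-coding, with 54 genes of the large subunit and 38 of the small subunit. The subunit was read from the symbol alone. The large subunit set therefore includes RpL24-like and RpLP0-like, both known in yeast as assembly factors. No expression value entered the rule. All 92 gene identifiers were also present in the 25 °C table, with the same exonic length.

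PolyA RNA from Drosophila melanogaster was sequenced in 5 labelled samples, 1 per group, to ask how feeding Levodopa and raising neuronal histone H1 alter transcripts. Levodopa, the precursor of dopamine, was given to flies labelled wild type at 4 g/L in the food for 7 days, at 25 °C in one sample and at 29 °C in another. For H1OE flies the driver was an elav line sensitive to temperature, which acts in neurons; it was crossed at 18 °C to a histone H1 overexpression strain, and the progeny then spent 7 days at 29 °C. Untreated flies labelled wild type were the controls at 25 °C and at 29 °C. The driver, the genetic background and the rearing temperature of H1OE are not matched to the 29 °C control by label, and fly age and sex are not given. The tissue is called both heads and brain in the labels. At 25 °C each sample has 2 columns of counts, and nothing says whether they came from separate flies, so the p-values reflect the variation from column to column alone, and this may be technical. At 29 °C each sample has 1 column and no test was possible.

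A ribosome joins a small subunit, which reads the message, to a large subunit, which forms the peptide bond. Each ribosomal protein is usually present once per ribosome, except for the acidic stalk proteins RpLP1 and RpLP2, and flies that lack 1 copy of many of these genes show the Minute phenotype of slow development and thin bristles. In flies these genes share a promoter element around the transcription start, the TCT motif, and several have paralogs that are used mainly in the germ line.

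Library totals were 30074894 and 30334054 counts for Levodopa and 25947583 and 28856401 for control at 25 °C. At 29 °C they were 26832877 for H1OE, 25975838 for Levodopa and 24770629 for control. Markers of neurons, photoreceptors, muscle, haemocytes and fat body were present, the lowest sum in any library being 422 CPM (counts scaled to a fixed library size), for haemocytes. The 8 testis markers summed to at most 1.12 CPM, and the 7 ovary markers to 24.1 to 33.1 CPM, mostly from grk. The 23 annotated His1 genes had 0 counts in all 3 libraries at 29 °C, a limit of 3 counts, or 0.112 CPM in the H1OE library, so these data did not check the H1OE label.

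Ribosomal protein transcripts took a smaller part of the Levodopa libraries than of the control libraries at 25 °C. They held 6.84 and 6.80% of all counts in the Levodopa columns, against 11.4 and 11.6% in the control columns. The columns of the 2 groups did not overlap. At 29 °C the share was 7.61% in H1OE and 6.95% in Levodopa, against 7.09% in the control. The exact binomial 95% interval of the first Levodopa column was 6.83 to 6.85%; such intervals cover counting error only, because the reads carry no molecular identifiers. Transcripts of the mitochondrial genome moved with the 25 °C groups, at 19.2 and 19.98% of counts in Levodopa against 12.98 and 13.2% in control. With these left out of the total, ribosomal protein genes held 8.47 and 8.50% in Levodopa, against 13.1 and 13.3% in control. In bulk samples, fewer cells of a type and less RNA per cell cannot be told apart.

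**Figure D1:**
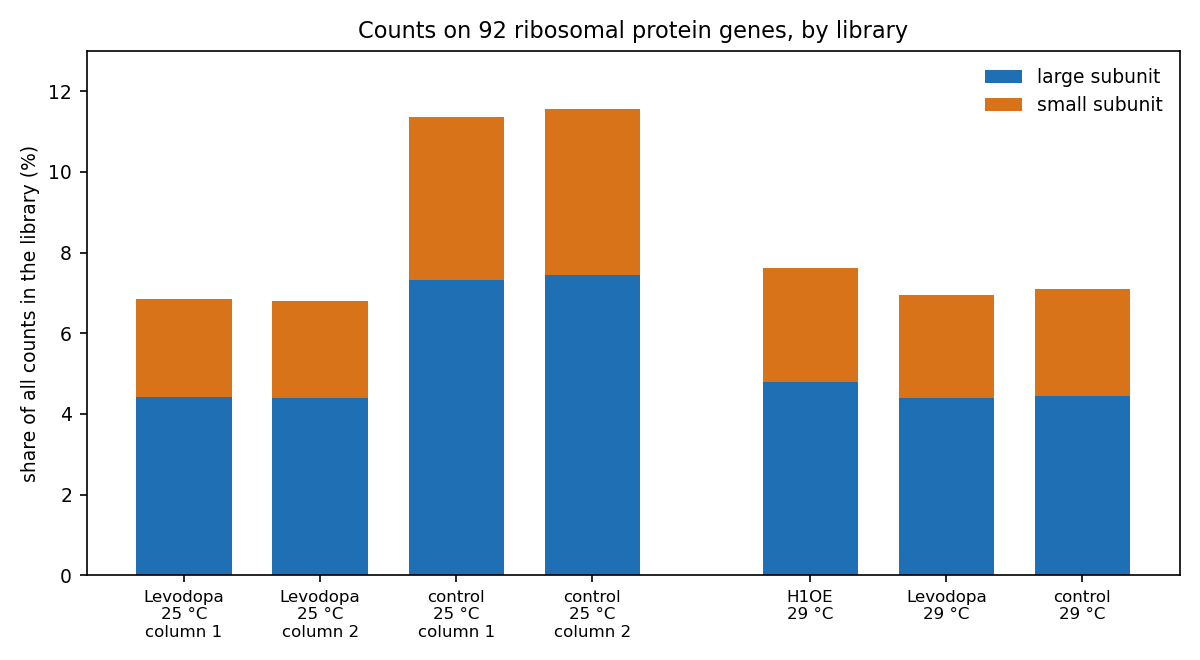
Share of all counts (%, y axis) that fell on the 92 ribosomal protein genes in each library (x axis), with large and small subunit genes stacked. The 2 Levodopa columns at 25 °C, at 6.84 and 6.80%, stand below the 2 control columns at 11.4 and 11.6%, and the 3 libraries at 29 °C lie between 6.95 and 7.61%.

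The balance between the subunits stayed close to constant. Large subunit genes supplied 64.4 and 64.5% of the ribosomal protein counts in the Levodopa columns, against 64.3 and 64.4% in the control columns at 25 °C. At 29 °C they supplied 63.1% in H1OE and 63.2% in Levodopa, against 62.7% in the control.

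Most members were among the most abundant messages per length. In FPKM, the deposited measure that divides counts by exonic length and library size, 81 of the 92 genes were at 100 or more in every library. At 25 °C the median of these 81 genes was 868 and 858 FPKM in Levodopa, against 1438 and 1449 FPKM in control, a level that 68 features exceeded in each Levodopa column and 71 in each control column. At 29 °C the median was 939 FPKM in H1OE and 849 FPKM in Levodopa, against 910 FPKM in control. RpLP1, an acidic protein of the stalk that recruits translation factors, led at 25 °C with 1851 and 1831 FPKM in Levodopa, against 3301 and 3349 FPKM in control. At 29 °C RpL7A led instead, with 1960 FPKM in H1OE and 1911 FPKM in Levodopa, against 1907 FPKM in control. RpS18, a protein of the small subunit head, was the highest small subunit gene in all 7 columns. RpL34a was the lowest of the 81 in all 7 columns, at 180 and 191 FPKM in Levodopa against 292 and 309 FPKM in control at 25 °C.

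A further 9 members were near zero, below 1 FPKM in every library. They are RpL10Aa, RpL22-like, RpL37b, RpL7-like, RpS10a, RpS19b, RpS28a, RpS28-like and RpS5b, several of which are known from fly gonads. RpS5b, the germ line paralog of RpS5a, had 9 and 4 counts in Levodopa and 3 and 9 in control at 25 °C. At 29 °C it had 8 in H1OE and 8 in Levodopa, against 16 in the control. RpL10Aa and RpL7-like had at most 2 counts in any column. RpS15Ab and RpLP0-like lay between the 2 sets, at 28.8 to 76.9 FPKM and 10.1 to 20.5 FPKM.

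Flies fed Levodopa at 25 °C had lower transcript levels across both subunits. A gene was called when edgeR's quasi-likelihood test gave a Benjamini-Hochberg adjusted p under 0.05 over 11799 features and the change was at least 2-fold. Of the 84 members with at least 10 counts in 1 column, 20 fell and 0 rose, where 3.14% of all features tested fell and 2.02% rose. By adjusted p alone 83 of 84 members were lower and 0 higher, against a background of 32.0% lower and 26.5% higher. The largest adjusted p among the 83 was 2.43e-09, for RpLP0-like, and 68 fitted p-values were too small to be told from 0. The median log2 fold change of the 84 members was -0.89, which is 53.9% of the control level, whereas the median of all features tested was -0.0034. The 4 pairings of a Levodopa column with a control column gave medians of -0.91 to -0.88. In 83 of 84 members the columns of the 2 groups did not overlap, where 39.5% of all features had lower columns without overlap. With DESeq2 13 members fell, 11 with a minimum of 50 counts, and 3 with total-count scaling, which shifts the median of all features by 0.14. Over all features 308 of 11799, 262 of 9514 and 208 of 11799 were lower, in the same order. Without the second control column the members' median was -0.88.

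Many members stood close to the 2-fold line. In all, 80 of 84 members were at least 1.5-fold lower and 0 were 1.5-fold higher, where 13.9% of all features were lower and 7.29% higher. Of the 84, 7 stood less than 0.02 past the 2-fold line and 4 less than 0.02 short of it. Just past it were RpL27 at -1.01 and RpS12 at -1.01, and just short of it RpS9 at -0.997 and RpL7 at -0.995. RpS12, a small subunit protein with a role in fly cell competition, had 347 and 341 CPM in Levodopa, against 665 and 719 CPM in control.

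**Figure D2:**
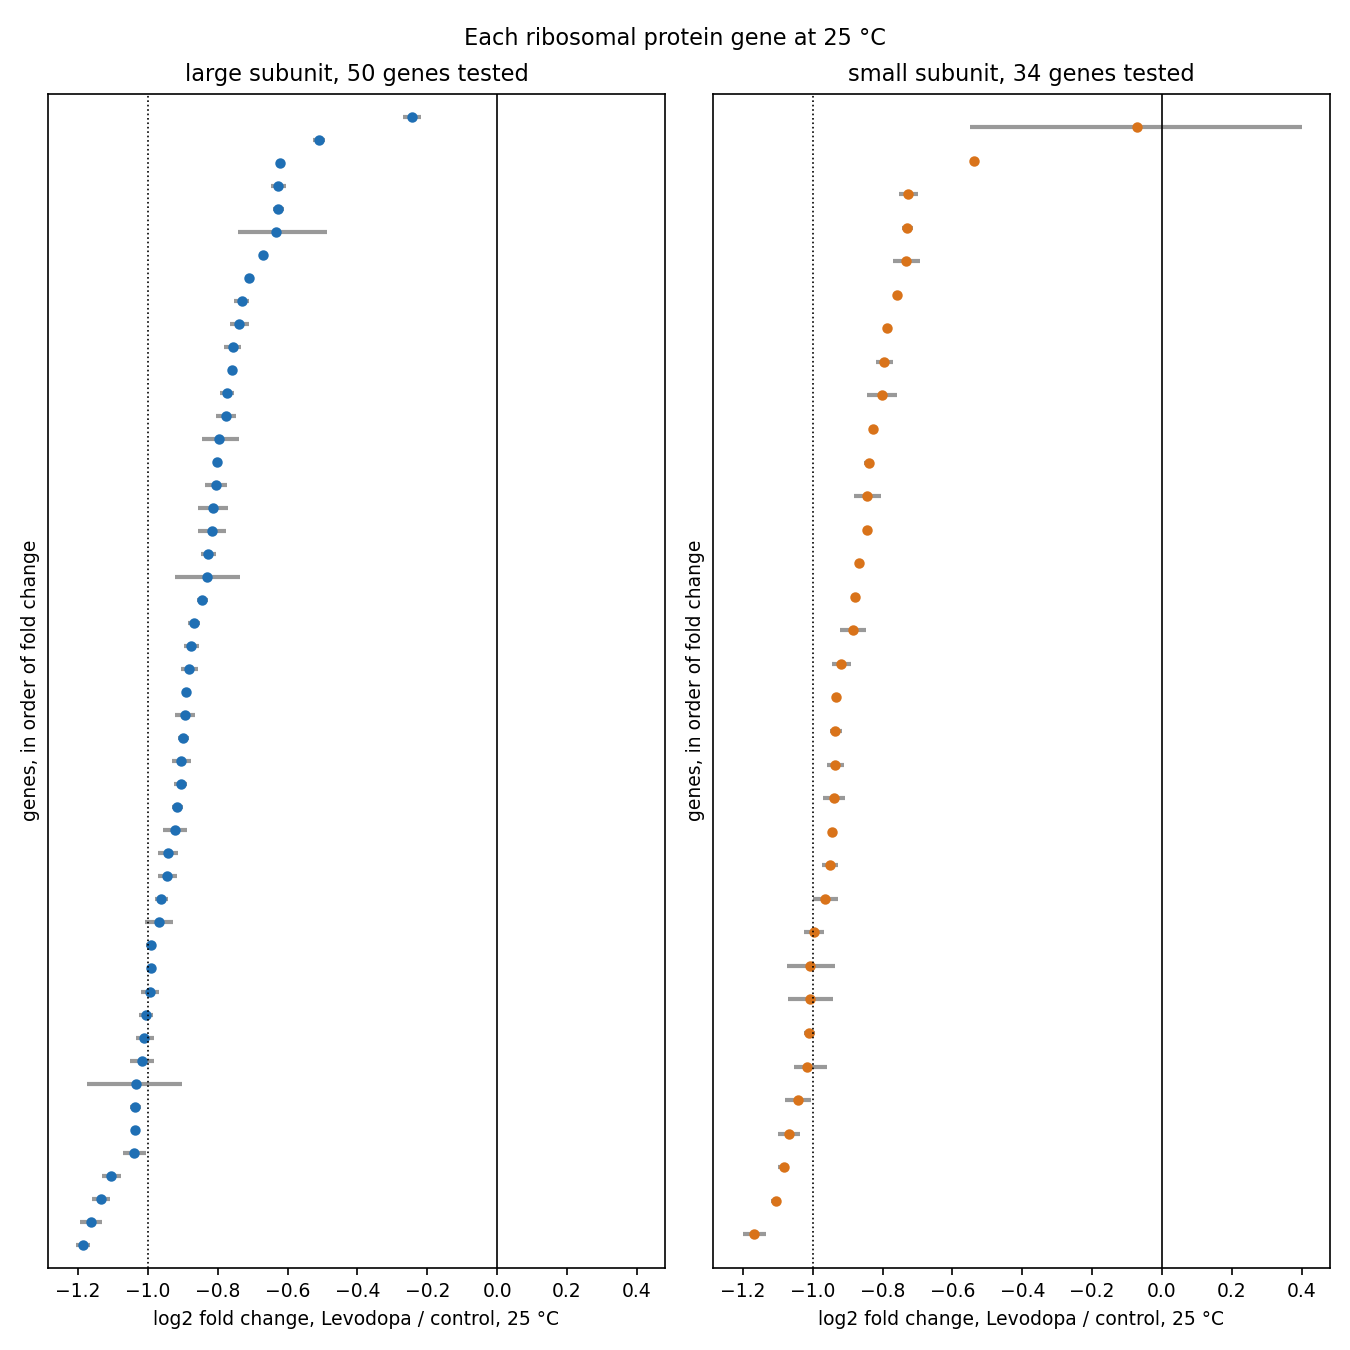
Log2 fold change of Levodopa over control at 25 °C (x axis) for each of the 84 ribosomal protein genes tested (rows, in order of fold change within each subunit), with large subunit genes in the left panel and small subunit genes in the right. Points are the fitted values, grey bars run over the 4 pairings of 1 column per group, and the dotted line marks a 2-fold fall. All 84 points lie below 0, from -1.19 for RpLP2 to -0.072 for RpS10a.

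Among the stalk genes RpLP2 fell past 2-fold, while RpLP1 and RpLP0 did not reach it. RpLP2 (FBgn0003274, chromosome 2R, 16586129 to 16586732) had 712 and 718 CPM in Levodopa, against 1613 and 1644 CPM in control, on TMM-scaled library sizes. Its log2 fold change of -1.19 (SE 0.02) was the lowest of all members. Its partner RpLP1 (2L) averaged 1348 ± 1.53 CPM in Levodopa and 2680 ± 36.2 CPM in control (SD, n = 2 columns), a log2 fold change of -0.99 that did not reach 2-fold. RpLP0, the protein that anchors the stalk, had 1431 and 1428 CPM in Levodopa, against 2636 and 2692 CPM in control, a log2 fold change of -0.90.

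The other largest falls came from both subunits. RpS14b, of a pair of neighbouring X-linked copies, had 120 and 117 CPM in Levodopa, against 264 and 269 CPM in control, with a log2 fold change of -1.17 (SE 0.03, edgeR adjusted p = 7.09e-277). RpL24, at the interface of the subunits, had 702 and 712 CPM in Levodopa, against 1561 and 1605 CPM in control, a log2 fold change of -1.16 (SE 0.02). RpL37A on 2L (FBgn0261608, a gene distinct from the X-linked RpL37a, FBgn0030616) had 561 and 560 CPM in Levodopa, against 1210 and 1252 CPM in control. Its log2 fold change was -1.14 (SE 0.02), against -0.87 for RpL37a, which did not reach 2-fold. RpS29 and RpL18 both had log2 fold changes of -1.11 (SE 0.02 each). In each of these genes both Levodopa columns lay below both control columns, as they did in 39.5% of all features tested.

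Of members with at least 50 counts, the 6 lowered least included genes of both subunits. Large subunit genes made up 50 of the 84 members tested. RpL38 had 419 and 431 CPM in Levodopa, against 501 and 505 CPM in control. Its columns did not overlap, where 39.5% of all features tested had lower columns without overlap. Its log2 fold change was -0.24 (SE 0.02, edgeR adjusted p = 2.07e-27). RpL41, a peptide of 25 residues, had 513 and 519 CPM in Levodopa, against 730 and 739 CPM in control, a log2 fold change of -0.51 (SE 0.02). RpL36A, RpL21 and RpL39 had log2 fold changes of -0.62, -0.63 and -0.63. RpS3A, the single member on chromosome 4, had 1385 and 1395 CPM in Levodopa, against 2014 and 2026 CPM in control, a log2 fold change of -0.54 (SE 0.02). None of these 6 genes reached the 2-fold minimum. RpL38 is known as a gene of pericentric heterochromatin, as are RpL15 (-0.67) and RpL5 (-0.76). RpL15 and RpL5 are not among these 6 genes and were named after their values were seen. Any part of position in the fold changes was not tested.

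RpS10a, at most 0.537 CPM, gave no detectable difference at its depth (log2 fold change -0.072, SE 0.75, edgeR adjusted p = 0.943).

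Genes with further roles moved with the rest. RpS6, the substrate of S6 kinase, had 1115 and 1126 CPM in Levodopa, against 1887 and 1902 CPM in control, a log2 fold change of -0.76 (SE 0.02). RpS3, which also has a DNA repair activity, averaged 766 ± 7.97 CPM in Levodopa and 1337 ± 41.8 CPM in control (SD, n = 2 columns), a log2 fold change of -0.80. RpL40 and RpS27A, which are made as fusions to ubiquitin, had log2 fold changes of -0.95 and -0.88. None of these 4 genes reached 2-fold. In each the Levodopa columns were below the control columns, as in 39.5% of all features tested.

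Large and small subunit genes had similar medians at 25 °C. The median log2 fold change was -0.89 over 50 large subunit genes, with 11 past the call, and -0.93 over 34 small subunit genes, with 9 past it. Over all features tested 3.14% were lower by this call. The pairings of columns gave -0.90 to -0.87 for the large and -0.93 to -0.90 for the small subunit. Among the 81 abundant members, the medians by chromosome were -0.89 on 2L (17 genes), -0.89 on 2R (17 genes), -1.003 on 3L (14 genes), -0.84 on 3R (18 genes) and -0.87 on X (14 genes). In flies many snoRNAs, which guide the modification of ribosomal RNA, lie in introns of ribosomal protein genes, and 28 members held 74 annotated snoRNA genes on their own strand. RpS5a held 14 of them and RpS7 held 7. The 28 hosts had a median of -0.91 and the 53 other abundant members one of -0.89.

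The fall at 25 °C was shared with other short, abundant messages. Fold change followed exonic length across all features tested, with medians of -0.30, -0.30, -0.020 and 0.36 from the shortest to the longest quartile, and 58 of the 84 members were in the shortest. Among features of the shortest quartile that were also in the highest 10% by level, 55 members had a median of -0.90, and 135 features that were not members had a median of -0.90. The 2 medians were equal to 2 decimals. After a lowess curve on length was subtracted the members' median was -0.60 and 0 of 84 passed 2-fold. After a loess surface on length and level was subtracted it was -0.13, and with the surface fitted over the other genes alone, an alternative added after the data were seen, it was -0.040, with 0 past 2-fold each time. Of all 11799 features, 186 were called lower after the curve and 168 after the surface over all features.

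Within the 81 abundant members, length did not order the fold changes (Spearman's rho 0.084 over 81 genes from the same libraries, given as a description). RpL5, which binds 5S RNA, was the single member in the longest quartile, with 3835 exonic bases of which 897 are coding. It had 2227 and 2206 CPM in Levodopa, against 3701 and 3792 CPM in control. Its log2 fold change was -0.76 (SE 0.01), where the 445 other long features in the highest 10% by level had a median of 0.38. This is 1 gene, and its length counts all annotated exons. The part of length in the members' fall was not tested.

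**Figure D3:**
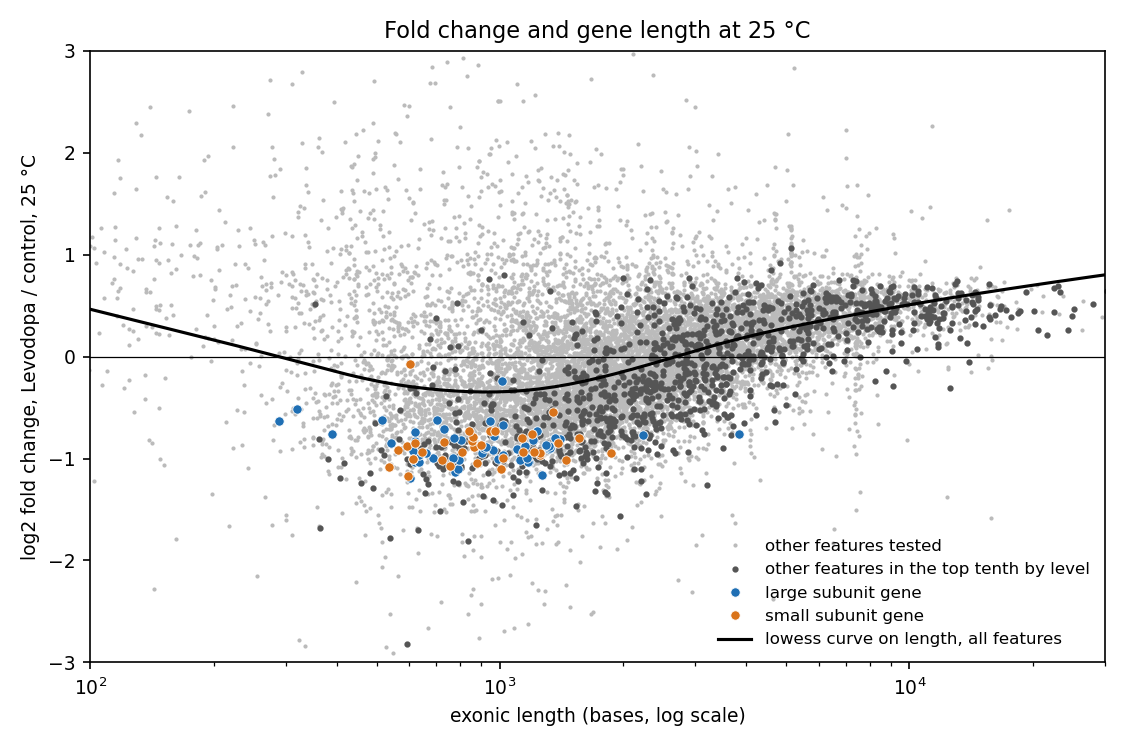
Log2 fold change of Levodopa over control at 25 °C (y axis) against exonic length in bases (x axis, log scale) for the 11799 features tested, with ribosomal protein genes in colour by subunit and other features in the highest 10% by level in dark grey. The black line is a lowess curve over all features, and 168 features lie outside the axes. Most coloured points lie at short lengths, where 135 dark grey points of the shortest quartile have a median of -0.90, and the longest member, RpL5, is at -0.76.

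Cell type markers also moved with the 25 °C groups. Their sums are on total-count libraries, whereas fold changes and calls are on TMM-scaled library sizes. Total-count scaling raises the median log2 fold change of all features by 0.14. The 5 neuronal markers summed to 2335 and 2313 CPM in Levodopa, against 1413 and 1389 CPM in control, and all 5 were higher by adjusted p alone (median log2 fold change 0.62). The 5 photoreceptor markers summed to 36169 and 35664 CPM in Levodopa, against 40012 and 39480 CPM in control, with a median of -0.57 and 4 of 5 lower by adjusted p alone. The 7 muscle markers summed to 2490 and 2448 CPM in Levodopa, against 2101 and 2110 CPM in control, with 3 higher and 2 lower by adjusted p alone of 6 tested. The 11 fat body and yolk markers summed to 3092 and 3054 CPM in Levodopa, against 2655 and 2666 CPM in control. Of 7 tested 1 rose past 2-fold, where 2.02% of all features did, and the median was -0.50. By adjusted p alone 2 were lower and 2 higher. The 6 haemocyte markers summed to 427 and 422 CPM in Levodopa, against 506 and 500.2 CPM in control. By adjusted p alone 3 of them were lower and 2 higher (median -0.22), and PPO1 fell past 2-fold (-1.17). Over all features 32.0% were lower and 26.5% higher by adjusted p alone. The part of these shifts in the ribosomal protein result was not tested.

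Other genes of ribosome production and use had medians nearer 0 than the members at 25 °C, apart from 2 ribosomal proteins. These lists were not matched to the members in length or level. The 2 ribosomal proteins whose symbols are outside the rule had values within the members' range: sta, the small subunit protein SA, fell by 1.03 on the log2 scale (SE 0.02), and Rack1 had a log2 fold change of -0.83 (SE 0.02). Of 11 elongation and nascent chain factors 0 passed 2-fold and 9 were lower and 2 higher by adjusted p alone, with a median of -0.48, where 32.0% of all features were lower and 26.5% higher. They included eEF1beta at -0.93 and eEF5 at -0.91, both elongation factors. Of 26 ribosome assembly and nucleolar genes 0 passed and 12 were lower and 1 higher by adjusted p alone, with a median of -0.17, led by the nucleostemin family gene Ns3 at -0.60 and by Non3 at -0.53. Of 10 listed genes of RNA polymerase I and its factors, which transcribe ribosomal RNA, only 6 were found by symbol. Of these 6, 0 passed and 1 was lower and 2 higher by adjusted p alone. Their median was 0.13, with udd at -0.54 and TAF1B at 0.39.

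Regulators of ribosomal protein genes and growth had a positive median. The list mixes activators, such as Myc, with repressors, such as Thor, so its median has no direction for growth. Gene length was not matched, and features of the longest quartile had a median of 0.36. Of 17 listed genes 0 passed 2-fold, 14 were higher and 1 lower by adjusted p alone, where 26.5% of all features were higher and 32.0% lower, and the median was 0.32. Xrp1, a transcription factor induced in flies that lack 1 copy of a ribosomal protein gene, averaged 693 CPM in Levodopa and 367 CPM in control, a log2 fold change of 0.92 (SE 0.02). Myc, an activator of ribosome production, averaged 16.9 CPM in Levodopa and 10.1 CPM in control, a log2 fold change of 0.73 (SE 0.11). Neither reached 2-fold.

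Levodopa at 29 °C was accompanied by little change in ribosomal protein genes. With 1 library per group, the rule of size was a difference of 2-fold or more once 10 counts had been added to each library. Of 84 members with at least 10 counts in 1 library 0 were lower and 0 higher by this rule, where 1.5% of 11145 features were lower and 1.15% higher. The median log2 fold change was -0.090 over the members, -0.073 over the large subunit and -0.11 over the small subunit, against -0.0033 over all features compared. Exact 95% counting intervals of the fold lay below 1 for 63 members, above 1 for 4 and across 1 for 17, where 21.5% of all features lay below 1 and 19.9% above. These intervals hold counting error alone, and the 25 °C columns varied beyond it, with a common coefficient of variation of 2.87% between columns. With the length trend removed the members' median was 0.0079 and 37 of 84 changed sign, so no direction is drawn at 29 °C.

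RpL29 was the lowest abundant member at 29 °C, with 2336 counts in Levodopa and 2792 in control. The fold was 0.776 (counting interval 0.734 to 0.820), and RpL29 overlaps CG9752, so its reads are uncertain. RpL41 had 4979 counts in Levodopa and 5558 in control, a fold of 0.831 (0.799 to 0.863). RpS21, RpL38, RpL31 and RpS15Ab followed, with log2 fold changes of -0.24, -0.24, -0.21 and -0.20. At the other end RpL22 had 32411 counts in Levodopa and 27011 in control, a fold of 1.11 (1.09 to 1.13), and RpL34b had 13265 in Levodopa and 11630 in control, a fold of 1.06 (1.03 to 1.08). RpL39, RpLP0-like, RpS6 and RpL6 had log2 fold changes of 0.067, 0.066, 0.052 and 0.036.

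**Figure D4:**
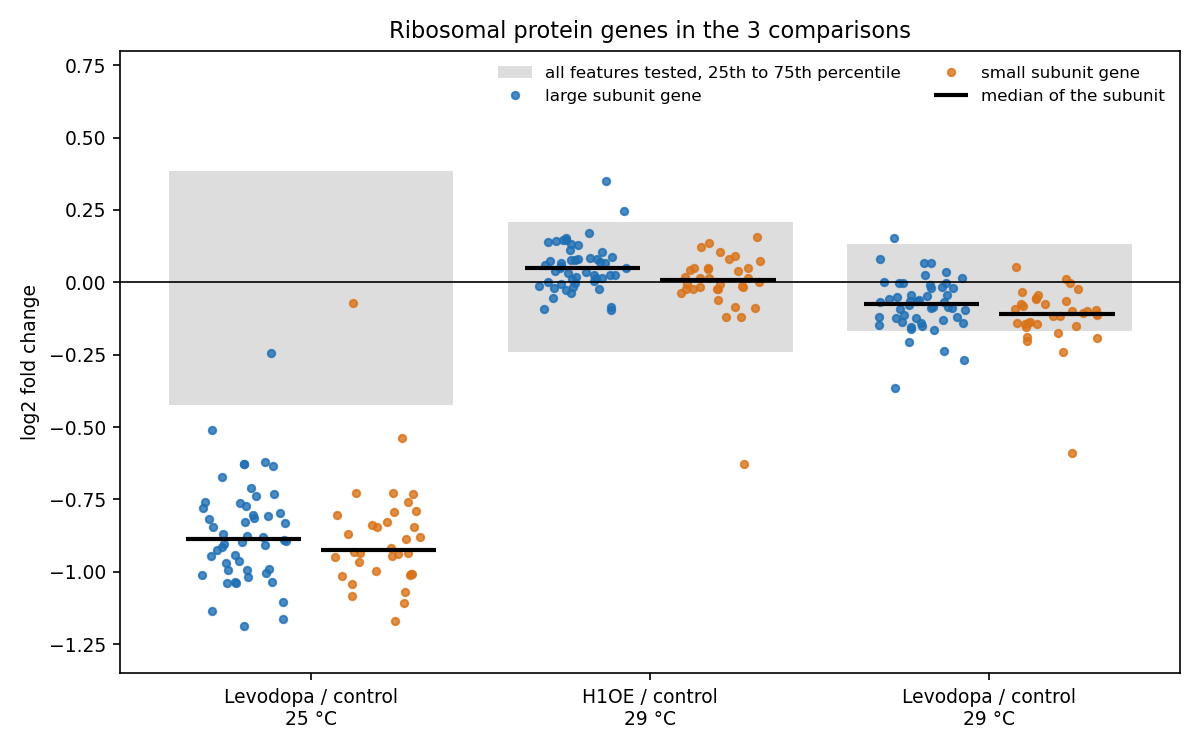
Log2 fold change (y axis) of each ribosomal protein gene in the 3 comparisons (x axis), by subunit, with black bars at the medians and grey boxes from the 25th to the 75th percentile of all features tested or compared. The medians of large and small subunit genes are -0.89 and -0.93 for Levodopa at 25 °C. They are 0.051 and 0.0081 for H1OE, and -0.073 and -0.11 for Levodopa at 29 °C.

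In H1OE no ribosomal protein gene passed the size rule against the shared 29 °C control. Of 84 members 0 were lower and 0 higher by the size rule, where 3.77% of 11340 features were lower and 3.35% higher. The median log2 fold change was 0.030, with 0.051 for the large and 0.0081 for the small subunit, against -0.0056 over all features compared. Counting intervals lay above 1 for 43 members, below 1 for 12 and across 1 for 29, where 26.6% of all features lay above 1 and 28.4% below. The median was 0.098 with total-count scaling, 0.11 with the length trend removed and 0.26 with length and level removed, and 20, 22 and 27 of 84 members changed sign, so no direction is drawn. RpL24-like, known in yeast as a factor of large subunit assembly rather than a part of the ribosome, had 5613 counts in H1OE and 3874 in control, a fold of 1.28 (1.22 to 1.33). It overlaps Dtd. RpL21 had 16971 counts in H1OE and 12605 in control, a fold of 1.19 (1.16 to 1.21). RpL34a, RpS9, RpL10Ab and RpL38 had log2 fold changes of 0.17, 0.16, 0.15 and 0.15. RpS15Ab, at 600 counts in H1OE and 575 in control, was at -0.12 with a counting interval across 1. Among the lowest abundant members were RpS16 at -0.12, RpL17 at -0.096, RpS19a at -0.088 and RpL36 at -0.085. RpS16 had 18382 counts in H1OE and 17567 in control, a fold of 0.921 (0.902 to 0.941).

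Of the other ribosome genes, Thor alone passed the size rule at 29 °C. Thor, the 4E-BP repressor of translation, had 7075 counts in H1OE and 1620 in control, a fold of 3.85 (3.64 to 4.06), and 1392 counts in Levodopa, a fold of 0.797 (0.741 to 0.856). Myc had 844 counts in H1OE and 429 in control, a log2 fold change of 0.78, and Irbp18 one of -0.30 in Levodopa. The medians of the lists in H1OE were 0.055 for elongation factors, 0.0057 for ribosome assembly, 0.35 for RNA polymerase I and 0.11 for regulators. In Levodopa they were -0.061, 0.0036, 0.12 and -0.0070. The assembly factor gene Non1 had 45685 counts in H1OE and 27240 in control, a fold of 1.48 (1.45 to 1.499). The assembly gene l(1)G0020 was at -0.54 in H1OE, and Surf6 (-0.51) and l(1)G0020 (-0.27) were the genes of that list farthest from 0 in Levodopa. In the elongation list eEF1delta (-0.32) and eEF1beta (-0.26) were farthest from 0 in H1OE, and eEF1beta (-0.22) and eEF1alpha2 (0.12) in Levodopa. In the RNA polymerase I list udd (0.65) and TAF1B (0.49) were farthest from 0 in H1OE, and RpI12 (0.99) and RpI135 (0.30) in Levodopa. The proteins sta and Rack1 had log2 fold changes of 0.10 and 0.094 in H1OE, and 0.068 and 0.023 in Levodopa. Fat body and yolk markers moved with both 29 °C comparisons. By the size rule 6 of 8 measured genes were lower in H1OE, where 3.77% of all features were lower and 3.35% higher. In Levodopa 5 of 10 were lower and 1 higher, where 1.5% of all features were lower and 1.15% higher. On total-count libraries these markers summed to 3856 CPM in H1OE and 9982 CPM in Levodopa, against 13047 CPM in control. Their part in the ribosomal protein values was not tested.

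Of 13 paralog pairs, 5 had both genes above 1 FPKM in every library. In the other 8 pairs the lower gene was near zero, and RpS5a, RpS10b, RpS19a, RpS28b, RpL10Ab, RpL37a, RpL22 and RpL7 supplied nearly all counts. Paralogs of near-identical sequence can share reads, and the counting method does not say how these were assigned. RpS14a and RpS14b lie side by side on the X chromosome and encode proteins of 151 residues each. RpS14b held 23.2 and 22.4% of the pair's counts in Levodopa, against 24.5 and 24.3% in control at 25 °C. At 29 °C it held 28.4% in H1OE and 29.4% in Levodopa, against 27.3% in control, so the side on which Levodopa lay was not the same at the 2 temperatures.

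RpL24-like took a larger part of its pair with RpL24 in Levodopa at 25 °C and in H1OE than in the controls. It held 19.0 and 18.6% in Levodopa, against 15.0 and 15.4% in control at 25 °C, without overlap of the columns. At 29 °C it held 17.2% in H1OE and 14.6% in Levodopa, against 14.2% in control. The exact 95% counting intervals at 29 °C were 16.8 to 17.6% in H1OE, 14.2 to 15.0% in Levodopa and 13.8 to 14.6% in control, so those of Levodopa and control overlapped.

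RpS15Ab took a smaller part of its pair in Levodopa at 25 °C. It held 4.39 and 4.45% in Levodopa, against 5.34 and 5.32% in control at 25 °C, without overlap, and 2.54% in H1OE and 2.52% in Levodopa, against 2.72% in control at 29 °C. RpL34a held 16.4 and 17.4% in Levodopa, against 15.9 and 16.8% in control at 25 °C, so the columns overlapped. At 29 °C it held 16.0% in H1OE and 14.8% in Levodopa, against 15.6% in control. RpLP0-like, known in yeast as a factor of subunit assembly, held under 1% of the RpLP0 pair in all 7 columns, with 0.87 and 0.84% in Levodopa against 0.67 and 0.75% in control at 25 °C, again without overlap.

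**Figure D5:**
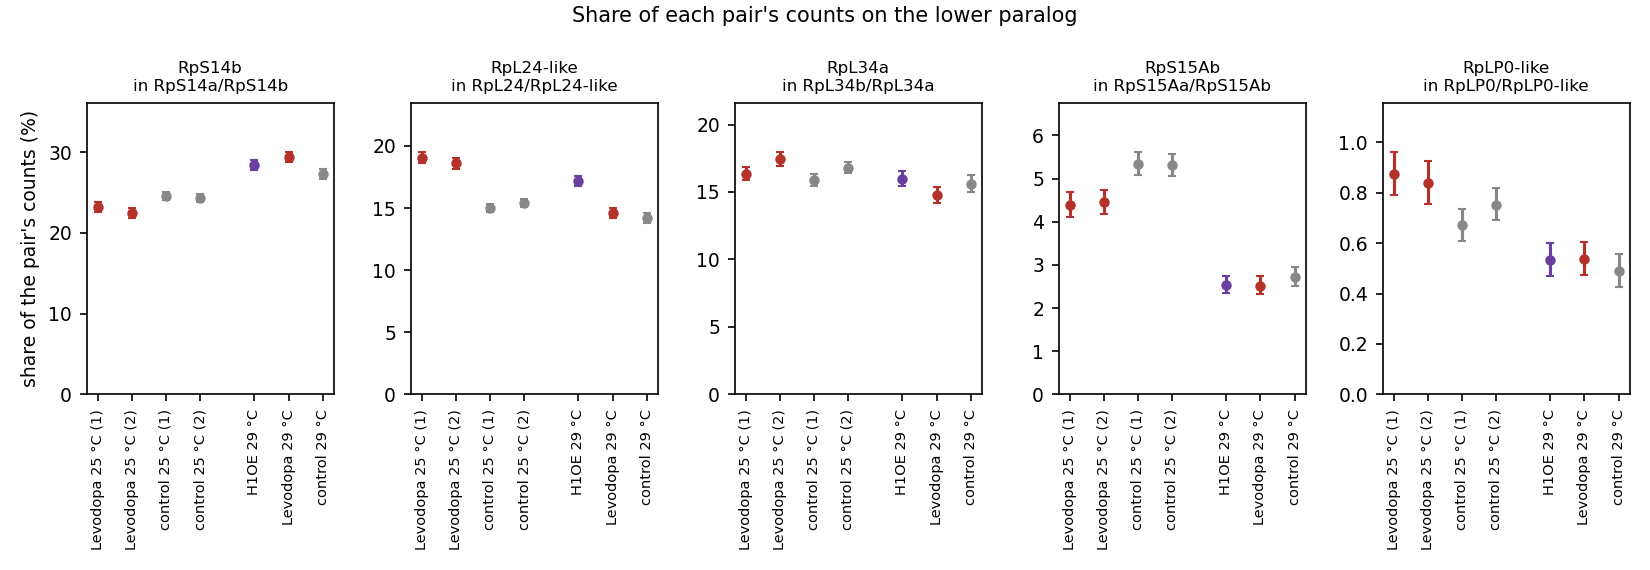
Share of a pair's counts (%, y axis) that fell on the lower of 2 paralogs in each library (x axis), with exact 95% binomial intervals that cover counting error only. For RpL24-like both Levodopa columns at 25 °C, at 19.0 and 18.6%, lie above both control columns, at 15.0 and 15.4%.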

How the data were processed

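Each library has integer counts of reads by gene, as the authors deposited them, beside deposited FPKM values. Reads were aligned to dm6 with HISAT2 2.2.1, per the submitters' processing notes. How reads were counted, with which strand setting and annotation, is not given in the sources used here. Of the members, 25 overlap another protein-coding gene. At 29 °C, 2 more value columns match no label and were left out.

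The members and lists were chosen with earlier results of these data known. Counts at 25 °C were tested with edgeR 4.0.16 (TMM scaling, R 4.3.3) without covariates, on features with at least 10 counts in 1 column. Tests were checked on simulated data. At 29 °C the size rule was used, so p-values are given for 25 °C alone. Alternatives were total-count scaling, DESeq2 1.42.0, other filters, folds and added counts, trends removed, a block on column numbers and columns left out. Named genes were the 6 lowest and 6 highest members per comparison with at least 50 counts, paralog pairs, genes under 10 counts, stalk and ubiquitin fusion genes, RpS6, RpS3, RpS12 and RpL41, and the 2 most changed genes of each list; 1 gene named by this rule is not reported here, and marker lists are given as sums. RpL5, RpL6, RpL15, RpL27A and the genes just either side of 2-fold were added after their values were seen. Promoters were not searched for motifs and no sequence is shown.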

Additional observations from a re-analysis of the deposited data

Results flagged for a closer look

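In 4 genes Levodopa columns and control columns were ordered one way at 25 °C, in all 4 pairings, and the 29 °C counting interval lay on the other side. RpL22, which in flies also binds chromatin with histone H1, had log2 fold changes of -0.90 at 25 °C and 0.15 at 29 °C. RpL34b had -0.89 at 25 °C and 0.081 at 29 °C. RpL6 had -0.78 at 25 °C and 0.036 at 29 °C, and RpS6 had -0.76 at 25 °C and 0.052 at 29 °C. The difference between the temperatures was not tested, because each group at 29 °C has 1 library and its interval holds counting error alone. Columns of 1 sample at 25 °C varied by 2.87% beyond counting, and the 29 °C folds of RpL34b, RpS6 and RpL6 were 1.06, 1.04 and 1.03, so no direction is drawn at 29 °C. Temperature cannot be told apart from the separate count tables.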

How the results depend on the processing

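The members' median at 25 °C was below 0 under each alternative run, but it was near 0 with the trend of the other genes removed, where 38 of 84 members changed sign; the causes were not tested. Where 20 members fell as reported, 3 fell with total-count scaling, 13 with DESeq2, 11 with a minimum of 50 counts and 0 with either trend removed. At 1.5-fold 80 fell, and with no fold minimum 83. Of all 11799 features 371 were lower as reported, 208 with total-count scaling and 308 with DESeq2. With a minimum of 50 counts it was 262 of 9514. Of the 11799, 186 were lower with the length trend removed and 168 with length and level removed. At 1.5-fold 1643 were lower, and with no fold minimum 3777. The members' median, then those of the large and small subunit, were -0.75, -0.75 and -0.79 with total-count scaling; -0.87, -0.86 and -0.90 with DESeq2; -0.86, -0.85 and -0.90 with at least 50 counts; and -0.91, -0.91 and -0.94 with columns summed. Unfiltered, the small subunit median was -0.90. With the length trend removed the 3 medians were -0.60, -0.59 and -0.60, with length and level removed -0.13, -0.13 and -0.15, and with the trend of the other genes removed, an alternative chosen after seeing the data, -0.040, -0.048 and -0.021, with 0 calls. Leaving out 1 column gave 13 to 23 calls and medians of -0.91 to -0.88 for all, -0.90 to -0.87 for large and -0.93 to -0.90 for small subunit genes.

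Removing the length trend turned RpS10a (0.22) and RpL38 (0.10) positive. Removing length and level turned 17 of 84 members, among them RpS27A (0.013), RpS15Aa (0.032), RpL29 (0.080), RpS3A (0.14), RpL39 (0.15), RpL15 (0.10), RpS28b (0.031), RpL36A (0.21), RpL21 (0.22), RpL6 (0.030), RpL38 (0.46) and RpL41 (0.36). RpS10a, with few counts, was also positive with total-count scaling (0.064) and ran over -0.99 to 0.49 with 1 column left out. At 29 °C, 1 member, RpS5b, passed with 1 count added or at 1.5-fold in Levodopa, and 1 likewise in H1OE. Of 11145 features in Levodopa, 417 were lower with 1 count added and 617 at 1.5-fold. Of 11340 in H1OE, 701 and 1106 were lower. The Levodopa median was -0.050 with total-count scaling, 0.0079, 0.054 and 0.10 with the length, length and level, and other-gene trends removed. The H1OE median was 0.098, 0.11, 0.26 and 0.37 in the same order. Column names at 25 °C carry the numbers 1 and 2, which nothing says mark a shared batch. Differences between columns 1 and 2 were uncorrelated between the groups (Pearson's r -0.0088 over 10283 features). With this replicate block, added after seeing the data, 20 members and 361 of all 11799 features fell, and the members' median was -0.89. Promoter motifs were not run. Depth limits the 8 members under 10 counts at 25 °C and the near-silent paralogs.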

Other observations

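RpL27A, a large subunit gene, differed between the 2 columns of the Levodopa sample at 25 °C, with 28258 and 33234 counts. On scaled libraries this is a 1.18-fold difference, the largest of 410 features with at least 10000 counts in both columns, whereas the next of 75 members differed by 0.049 on the log2 scale. In the control columns RpL27A was 78th of 369 features. Its call at 25 °C was lost without the first Levodopa column (log2 fold change -0.92, against -1.04 with both).

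The 25 °C and 29 °C controls differed in how counts were spread over the members, and temperature cannot be told apart from the separate tables. RpL39, among the shortest members, had 49.2 CPM in the 29 °C control, against 284 and 279 CPM in the 25 °C control columns, on total-count libraries. RpL29 had 113 CPM at 29 °C, against 503 and 502 CPM at 25 °C. RpLP1 had 804 CPM at 29 °C, against 2535 and 2572 CPM at 25 °C, while RpS6 had 1679 CPM at 29 °C, against 1802 and 1809 CPM at 25 °C. Over the 81 abundant members the log2 ratio of 29 °C to 25 °C rose with exonic length (Spearman's rho 0.49, given as a description, since all genes share the same libraries).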
